A study of Canis lupus familiaris with 6 samples.

Results

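The transcription factors and markers of epithelial-mesenchymal transition (EMT) described here were SNAI1, SNAI2, ZEB1, ZEB2, TWIST1, VIM, EPCAM, ESRP1, GRHL2 and OVOL1, measured in MDCK (Madin-Darby canine kidney) cells, an epithelial line from dog kidney. Non-control probes whose gene name in the array design equalled one of these 10 symbols were taken, which gave 14 probes of 9 genes among the 43603 probes of the array, which carry 34378 gene names or identifiers. No probe carried the name TWIST1. All RNA came from β-cat ΔN/RasV12 cells (in the labels, MDCK-pTR GFP-RasV12 with mCherry-β-catenin Δ131). They express an mCherry-tagged β-catenin without its N-terminus from the EF1 promoter and, on addition of tetracycline, GFP-RasV12, the oncogenic Ras mutant. The 3 single culture arrays came from such cells grown by themselves, and the 3 mix culture arrays from such cells grown among β-cat ΔN cells, 10 for each of them. The surrounding cells carried the same β-catenin and no RasV12, so that the mutant β-catenin, the tetracycline and its duration of 24 h were shared by both groups. GFP-positive cells were then sorted by flow cytometry. The cells were selected with G418, and whether a line was a single clone is not given in the sources used here. Nothing states that replicates were separate cultures, so the p-values measure the spread between these samples, which may be technical.

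EMT is the passage of epithelial cells from a polarised, adherent state to a migratory one. The zinc finger proteins SNAI1 (Snail) and SNAI2 (Slug), the zinc finger homeobox proteins ZEB1 and ZEB2 and the helix-loop-helix protein TWIST1 repress epithelial genes such as CDH1, which encodes E-cadherin, whereas GRHL2, OVOL1 and the splicing factor ESRP1 maintain the epithelial state. Vimentin (VIM) is the intermediate filament protein of mesenchymal cells and is also present in many cultured epithelial lines, and EPCAM is an adhesion molecule of epithelial cells.

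The sequences on which these measurements rest were 60-base probes in the sense direction. They are printed 5′ to 3′ for 1 probe each of SNAI1, VIM, EPCAM and ESRP1, which were tested, and for ZEB1, ZEB2 and GRHL2, whose low signal is read against them. Capitals mark the longest stretch that the probe shares with any probe of another gene name on the array.
SNAI1 (A_11_P0000029756, CanFam3.1 chr24:36498731-36498790, plus strand): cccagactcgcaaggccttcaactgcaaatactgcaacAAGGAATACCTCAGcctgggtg
VIM (A_11_P0000023235, chr2:19673827-19674236, minus strand): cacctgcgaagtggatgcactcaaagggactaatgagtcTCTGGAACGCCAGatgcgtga
EPCAM (A_11_P090096, chr10:49496484-49498291, plus strand): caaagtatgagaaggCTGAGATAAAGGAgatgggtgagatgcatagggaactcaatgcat
ESRP1 (A_11_P0000030726, chr29:39360791-39360850, plus strand): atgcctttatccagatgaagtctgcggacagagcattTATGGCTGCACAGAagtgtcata
ZEB1 (A_11_P101746, chr2:15302746-15302805, minus strand): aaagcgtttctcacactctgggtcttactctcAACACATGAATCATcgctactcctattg
ZEB2 (A_11_P0000028100, chr19:46432183-46432242, minus strand): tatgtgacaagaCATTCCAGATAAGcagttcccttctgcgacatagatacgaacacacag
GRHL2 (A_11_P0000026539, chr13:3359659-3359718, plus strand): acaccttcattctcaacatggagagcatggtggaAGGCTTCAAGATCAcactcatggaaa
Across the 14 probes the longest shared stretch was 13 to 15 bases. The probes of related factors had little sequence in common. Those of SNAI1 and SNAI2 shared no run longer than 6 bases and those of ZEB1 and ZEB2 none longer than 6 bases. The VIM and EPCAM probes printed, and that of OVOL1, covered more than 60 genomic bases and so crossed an intron. The GC content of the 14 probes ran from 35.0% to 55.0%, against a median of 43.3% over all probes. Positions relative to exons and UTRs were not analysed here.

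Signals were compared as log2 values after each array's 75th percentile had been subtracted (normalised log2 signal), and a change is mix culture minus single culture. Replicate 1 of each group lay on slide 1 and replicates 2 and 3 on slide 2. A probe entered the test if all arrays of 1 group or of the other detected it well above background. That held for 26623 probes, with 8 of the 14 probes of EMT genes, covering SNAI1, SNAI2, VIM, EPCAM and ESRP1. The sorted cells gave signal for epithelial markers: CDH1, CDH16, KRT18, PAX8 and EPCAM, the 5 of 8 listed kidney tubule markers with a probe, were well above background on all 6 arrays. The defining leukocyte marker PTPRC and the fibroblast markers COL3A1, DCN and PDGFRA gave no signal well above background on the 6 arrays. The tested markers numbered 3 of 7 for fibroblasts, 4 of 6 for leukocytes and 3 of 5 for endothelium, with medians of -0.28, -0.18 and -0.08, and none was called.

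Without the slide in the model, none of the 8 probes passed an adjusted p of 0.05 in limma, in a comparison where 0.883% of all tested probes did. One probe, that of SNAI1, had an unadjusted p under 0.05, beside 8.71% of all tested probes, and the methods' t-test gave 0 probes before or after adjustment. With the slide as a block, SNAI1 passed as higher in mix culture, and 1 of 8 probes stood beside 7.2% of all tested probes. With the replicate number as a block, SNAI1 was again the probe that passed, and the share over all tested probes was 5.25%. In no case did the groups separate completely, since 0 of the 8 probes had groups that did not overlap, against 16.5% of all tested probes. The mean change was above 0 for 6 of 8 probes, and the median over the 5 genes was 0.08, against -0.05 over all tested probes. In sorted bulk RNA, fewer cells of a type and less RNA per cell cannot be told apart.

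SNAI1, which binds E-boxes in the CDH1 promoter, showed the largest change of the 8 probes. Its normalised log2 signal was -3.19, -2.84 and -2.58 in single culture replicates 1, 2 and 3 and -2.64, -1.78 and -1.84 in mix culture replicates 1, 2 and 3. The groups overlapped because mix culture replicate 1 lay just below single culture replicate 3, while each mix culture array lay above both of the single culture arrays 1 and 2. Before scaling, the intensities were 22.5, 23.3 and 28.9 in single culture and 37.4, 52.8 and 44.8 in mix culture, a low signal that was well above background on all 6 arrays. The means were -2.87 ± 0.31 and -2.09 ± 0.48 (SD, n = 3 each), a change of 0.78 with an SE of 0.28 and a 95% interval of 0.12 to 1.45. This was a 1.72-fold higher mean in mix culture, with an interval of 1.09 to 2.73. Of all tested probes, 3.62% had a larger absolute change.

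The SNAI1 change was called or not according to whether slide differences were held apart. Its adjusted p from limma was 0.469 without a block, 0.00982 with the slide as a block and 0.020 with the replicate number as a block. Within slide 1 the change was 0.56, and within slide 2 it was 0.90. All 3 same-numbered pairs had the higher signal in mix culture, by 0.56, 1.06 and 0.73. When 1 array was left out at a time, without a block, the change ran from 0.62 to 1.06 and the adjusted p from 0.137 to 0.984. Background correction with normexp followed by quantile normalisation gave a change of 0.27, where an offset of 50 is added to each signal.

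**Figure D1:**
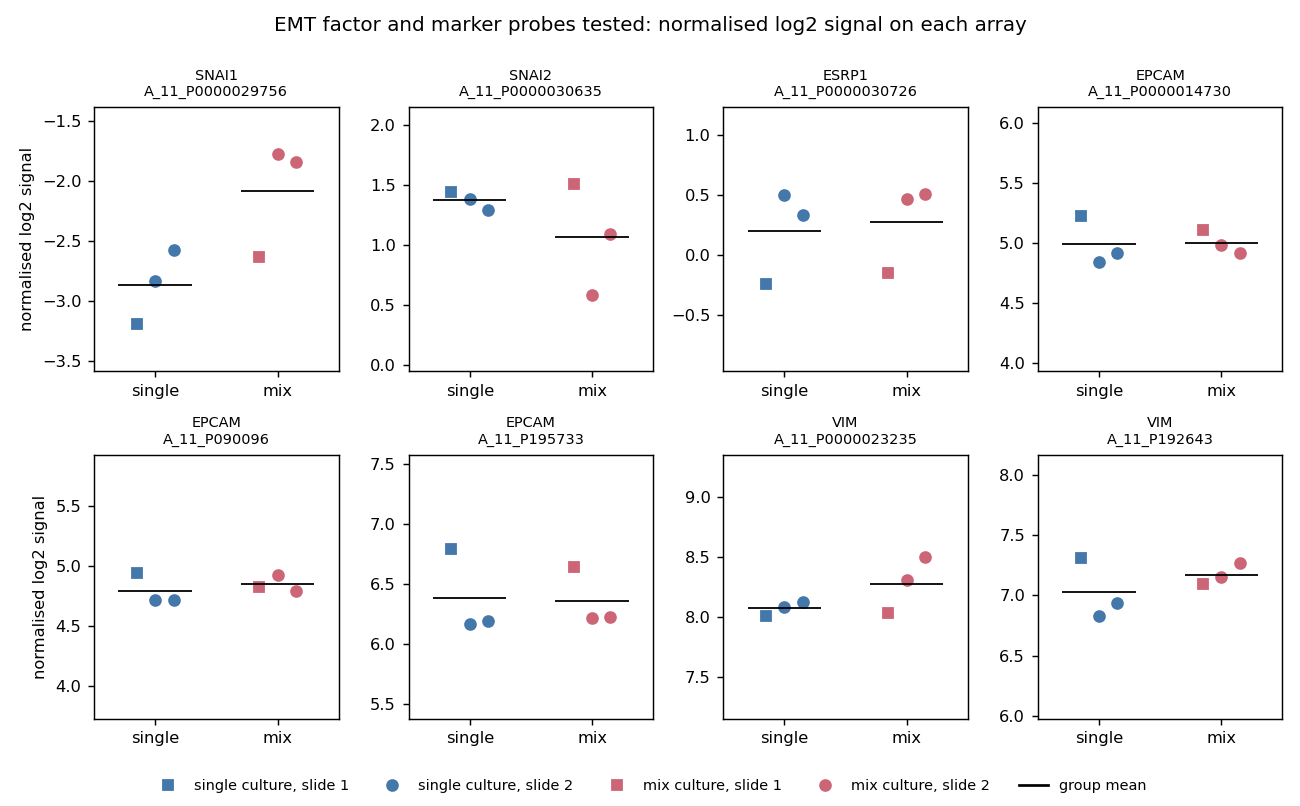
Normalised log2 signal of the 8 tested probes on each array, with single culture in blue and mix culture in red, squares for slide 1, circles for slide 2 and a line at each group mean. Each panel spans the same number of log2 units. SNAI1 had means of -2.87 and -2.09, and every other panel shows means that lie within 0.31 of each other.

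SNAI2, the relative of SNAI1 that also represses CDH1, passed in none of the fits. Its normalised log2 signal was 1.44, 1.39 and 1.29 in single culture and 1.51, 0.58 and 1.09 in mix culture. Mix culture replicate 1 had the highest value and replicate 2 the lowest of all 6 arrays, so that the groups overlapped. The change was -0.31 with an SE of 0.24 and an interval of -0.89 to 0.27 (adjusted p = 0.850), and it was 0.07 within slide 1 and -0.50 within slide 2. Without mix culture replicate 2 the change came to -0.07. The mix culture arrays had an SD of 0.46 and the single culture arrays an SD of 0.07.

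The remaining EMT repressors on the array, ZEB1 and ZEB2, gave signals near the limit of detection. The lowest signal of any probe well above background was 4.19 to 4.48 intensity units, depending on the array. ZEB2 had intensities of 1.05, 1.74 and 1.08 in single culture and 1.07, 1.55 and 1.52 in mix culture, below that limit on every array. The ZEB1 probe printed above gave 4.40, 2.94 and 3.17 in single culture and 7.21, 2.0 and 2.19 in mix culture, and was well above background on mix culture replicate 1 alone. Both other ZEB1 probes stayed between 1.08 and 1.73 units on all 6 arrays. A further 3 probes carried the ZEB1 symbol in their description and not in their gene name, and 0 of them could be tested. One of those was well above background on replicate 1 of each group, at 5.28 units in single culture and 9.37 in mix culture. No fold change is given for these probes, since neither group measured them.

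VIM was measured by a probe that crosses an intron and by a second probe, A_11_P192643, that lies further along the transcript. The first gave 8.01, 8.08 and 8.13 in single culture and 8.03, 8.31 and 8.50 in mix culture. The second gave 7.32, 6.83 and 6.94 in single culture and 7.09, 7.16 and 7.27 in mix culture. On slide 2 both mix culture arrays lay above both single culture arrays for each probe, whereas on slide 1 the probes differed in sign. The changes were 0.21 (SE 0.17, interval -0.20 to 0.61, adjusted p = 0.857) and 0.14 (SE 0.18, interval -0.28 to 0.57, adjusted p = 0.936). Within slide 1 they were 0.02 and -0.22, and within slide 2 they were 0.30 and 0.33. Over the 6 arrays both probes had a correlation of 0.34, given as a description. From the authors' table, in which values were centred within each slide, the first probe gave a change of 0.36 with an adjusted p of 0.0152, the only processing among those tried in which VIM was called.

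EPCAM had 3 probes, and none moved by more than 0.06 between the cultures. The probe printed above gave 4.95, 4.72 and 4.72 in single culture and 4.83, 4.93 and 4.79 in mix culture. The brightest, A_11_P195733, gave 6.79, 6.17 and 6.19 in single culture and 6.63, 6.21 and 6.22 in mix culture. The third, A_11_P0000014730, gave 5.23, 4.84 and 4.92 in single culture and 5.11, 4.98 and 4.92 in mix culture. For the brightest and the third probe the arrays of slide 1 lay above those of slide 2 in both cultures. The changes were 0.06, -0.02 and 0.01 with SEs of 0.15, 0.23 and 0.17 (adjusted p = 0.975, 0.991 and 0.995). With the slide as a block the 3 intervals ran from -0.19 to 0.31, from -0.26 to 0.21 and from -0.23 to 0.25, so that none of them reached beyond 0.31 in either direction. Correlations between these probes over the 6 arrays were 0.61, 0.77 and 0.96.

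ESRP1, which directs the epithelial splicing of transcripts such as that of CD44, was at -0.24, 0.51 and 0.33 in single culture and -0.15, 0.47 and 0.51 in mix culture. Replicate 1 was the lowest in each group, and the groups overlapped throughout. The change was 0.08 with an SE of 0.27 (interval -0.56 to 0.71, adjusted p = 0.981). With the slide as a block the interval narrowed to -0.16 to 0.31.

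GRHL2 and OVOL1, both transcription factors that hold cells in the epithelial state, gave no signal well above background on the 6 arrays. GRHL2 had intensities of 4.20, 4.12 and 4.23 in single culture and 2.42, 2.31 and 3.64 in mix culture. Every single culture array was thus brighter than every mix culture array before scaling, although the scanner software marked none of these spots as well above background, and after scaling the groups overlapped. OVOL1 had 1.90, 2.31 and 2.72 units in single culture and 2.13, 1.09 and 1.68 in mix culture. As neither group was well above background for either gene, no fold change is given.

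**Figure D2:**
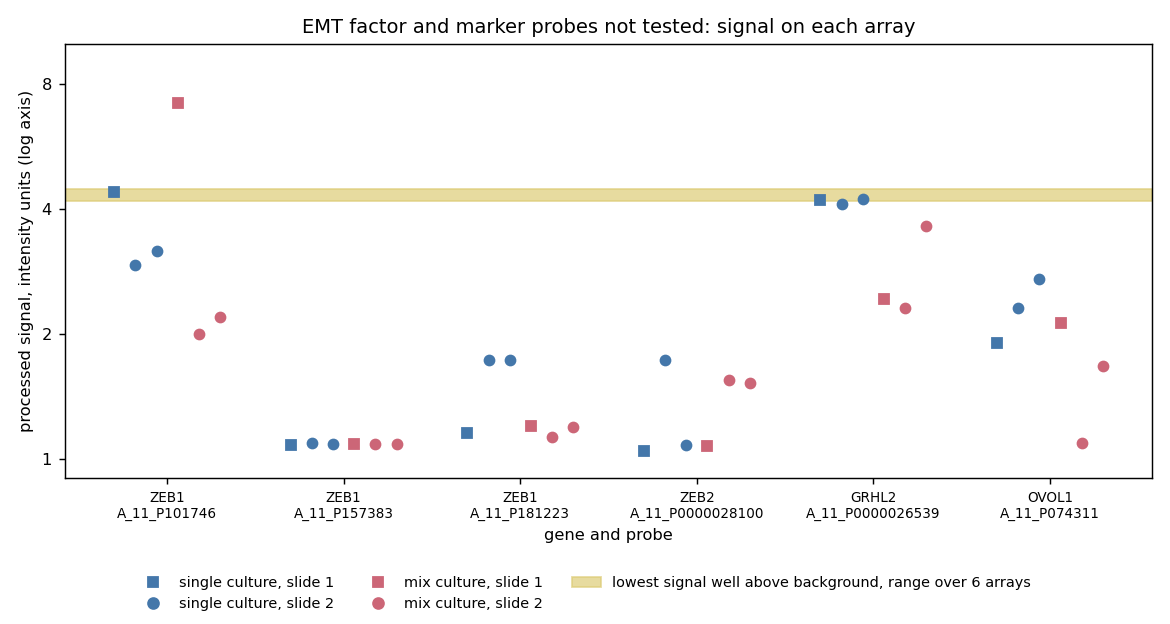
Processed signal of the 6 probes that could not be tested, in intensity units on a log axis, with 1 point per array, colours for the culture and shapes for the slide. The shaded band is the lowest signal of any probe well above background, 4.19 to 4.48 over the 6 arrays. Only the ZEB1 probe on mix culture replicate 1, at 7.21 units, lies clear above the band.

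Some of these genes also differed between slides. In a model with both terms, 3 of 8 probes differed between slides, against 47.2% of all tested probes. SNAI1 was 0.65 higher on slide 2 (SE 0.13, limma adjusted p = 0.00514), ESRP1 was 0.64 higher (SE 0.11, adjusted p = 0.00245) and the brightest EPCAM probe was lower, at -0.51 (SE 0.11, adjusted p = 0.00619). For ESRP1 and EPCAM the slide difference exceeded the change with culture several times over, whereas for SNAI1 both were of similar size.

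**Figure D3:**
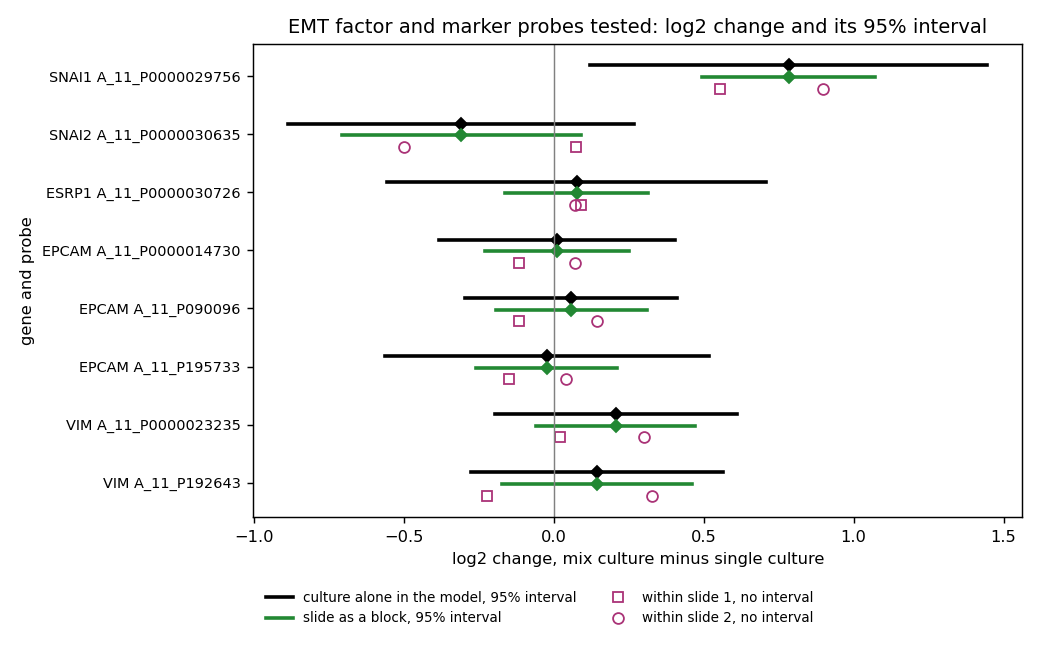
Change in log2 signal, mix culture minus single culture, for the 8 tested probes, with the 95% interval from limma without a block (black) and with the slide as a block (green), and the difference within each slide (open symbols). SNAI1 is the only probe whose intervals lie above 0, from 0.12 to 1.45 without a block and from 0.49 to 1.07 with it.

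Genes whose pattern over the 6 arrays was most like those of the markers were sought among 9868 named genes that were well above background on all arrays, using 1 probe each. For VIM the highest Pearson correlations were 0.983 with POGLUT1, 0.982 with ATF6 and 0.975 with MRS2. Their changes with culture were 0.22, 0.17 and 0.33, none of them called. For EPCAM they were 0.999 with ANO6, 0.998 with ACTR3B and 0.998 with RAB14, whose changes were -0.01, -0.10 and -0.06. These correlations rest on 6 points that share 2 slides and are given as a description.

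The products that these factors act on and the other regulators of EMT were described by 5 lists, each gene by its brightest tested probe. Without a block, 0 genes of the 5 lists were called by that probe. Over all 177 tested probes of the listed genes, 5 passed without a block, and they belonged to 3 genes, EHF, ETS2 and TGFBR3. At an unadjusted p under 0.05 the lists held 3, 3, 3, 4 and 4 genes in the order given below, where 8.71% of all tested probes passed, and the methods' t-test gave 3, 2, 2, 4 and 4 before adjustment and 0 after it. Genes that passed with the slide as a block are named as well. They were picked after their values were seen, and their counts stand beside the 7.2% of all tested probes that passed in that fit. After normexp and quantile normalisation the medians of the lists, in the same order, were -0.16, -0.04, -0.08, -0.08 and -0.05, against -0.01 over all tested probes, and so lay nearer to 0 than those given below.

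Among the epithelial products, the junction, keratin and membrane proteins that define the epithelial state, 27 of 40 genes were tested. The mean was below 0 for 24 of these 27, with a median of -0.32, whereas 58.0% of all tested probes were below 0. The count stayed at 24 of 27 under the other scalings tried and was 22 of 27 on slide 2 alone. The size depended on the slide and the scaling. The median was -0.47 within slide 1, which held replicate 1 of each group alone, and -0.19 within slide 2. After normexp and quantile normalisation it was -0.16. CDH1 had normalised log2 signals of 4.11, 3.93 and 3.81 in single culture and 3.45, 3.54 and 3.44 in mix culture, so that all 3 mix culture arrays lay below all 3 single culture arrays. Its change was -0.47 (SE 0.15), a fold of 0.721, with an adjusted p of 0.384 without a block, 0.0444 with the slide as a block and 0.0761 with the replicate number as a block. All 3 CDH1 probes were lower, by -0.46 to -0.60, and passed with the slide as a block. The tight junction protein CLDN4 (claudin 4) gave -0.87 (SE 0.43, adjusted p = 0.674), and the desmosomal protein DSP gave -0.46 (SE 0.16, adjusted p = 0.454), and both passed with the slide as a block (adjusted p = 0.0136 and 0.0407). With the replicate number as a block, CLDN4 was the 1 gene of this list that passed (adjusted p = 0.0222).

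Of the mesenchymal products, 27 of 35 genes were tested, with a median of -0.18 and 10 of 27 above 0. CDH2, which encodes N-cadherin, the cadherin gained in EMT, had normalised log2 signals of 1.36, -0.48 and 0.57 in single culture and -1.26, -0.12 and -0.86 in mix culture. The arrays of each culture differed widely and overlapped, and the change of -1.23 (SE 0.49, adjusted p = 0.540) passed in neither fit. Within slide 1 it was -2.63, and within slide 2 it was -0.54. VCAN, the matrix proteoglycan versican, was at -3.01, -3.53 and -3.50 in single culture and -2.38, -2.50 and -2.11 in mix culture. All mix culture arrays lay above all single culture arrays, and the change of 1.02 (SE 0.20) had an adjusted p of 0.0999 without a block and 0.00870 with the slide as a block. FSTL1, a secreted glycoprotein, was lower in mix culture by a mean of -0.98 (SE 0.20), with adjusted p of 0.114 without and 0.0145 with the slide as a block. PDGFRA, COL3A1, POSTN, NCAM1 and CDH11 gave no signal well above background on the 6 arrays.

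Of the other EMT transcription factors, 10 of 24 genes were tested, and 10 had no probe of that name. The median was -0.13, and 3 of the 10 were above 0. ETS2 was at -1.19, -0.54 and -0.72 in single culture and 0.25, 1.22 and 0.89 in mix culture, whereas its relative ETS1 was at 3.62, 3.15 and 3.23 in single culture and 2.50, 2.19 and 2.34 in mix culture. Both genes of this family, which respond to Ras and MAP kinase signalling, thus had groups that did not overlap, in opposite directions. ETS2 changed by 1.60 (SE 0.29, adjusted p = 0.0745 without and 0.000398 with the slide as a block), a fold of 3.04. For ETS1 the change was -0.99 (SE 0.19, adjusted p = 0.0821 without and 0.00177 with the slide as a block), a fold of 0.504. Each gene had 3 probes, all of which passed with the slide as a block. Without a block 1 of the ETS2 probes passed, A_11_P061476, with a change of 1.68 (SE 0.18, adjusted p = 0.00919), and 0 of the ETS1 probes did. ID3, a target of BMP signals that inhibits helix-loop-helix factors, changed by 0.91 (SE 0.41, adjusted p = 0.625 without and 0.0106 with the slide as a block). Its groups overlapped, and the interval without a block ran from -0.07 to 1.89.

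The regulators of epithelial identity, 15 of 22 tested, had a median of -0.15 (-0.07 on slide 2 alone), and 4 were above 0. EHF, an ETS factor of epithelial cells, was at 1.26, 0.33 and 0.45 in single culture and 2.32, 2.40 and 2.04 in mix culture. Its groups did not overlap, and the change was 1.57 (SE 0.27), a fold of 2.98, with an adjusted p of 0.0601 without a block and 0.00226 with the slide as a block. All 4 EHF probes passed in the latter fit, and the other 3 probes also passed without a block, with changes of 1.55, 1.58 and 2.02 (adjusted p = 0.0141, 0.0126 and 0.00901). ELF3, another epithelial ETS factor, changed by 1.25 (SE 0.44, adjusted p = 0.456 without and 0.00575 with the slide as a block). TFAP2C was at -3.72, -3.78 and -3.93 in single culture and -4.98, -6.03 and -5.08 in mix culture, where only 1 of the 3 arrays was well above background. It was tested because the single culture arrays detected it, and the size of its change is not well measured, as 2 of the mix culture values were not well above background. That filter favoured a lower value in mix culture, so its adjusted p-values are given as a description and not as support for a change. The change of -1.55 (SE 0.29) had an adjusted p of 0.0783 without and 0.00729 with the slide as a block. With the replicate number as a block, EHF and ELF3 passed and CDH1, which is also in this list, did not. TFAP2C fell under the threshold in that fit too, with the same limit from the filter. OVOL2, the relative of OVOL1, was well above background on all 6 arrays and gave -0.36 (SE 0.23, adjusted p = 0.781).

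Of the TGF-β and BMP signals, 23 of 26 genes were tested, with a median of -0.14 and 7 above 0. PMEPA1, a TGF-β target that restrains the pathway, was at 4.94, 4.49 and 4.75 in single culture and 4.05, 3.29 and 3.52 in mix culture. TGFBR3, the co-receptor betaglycan, was at -1.04, -1.53 and -1.46 in single culture and 0.22, -0.53 and -0.48 in mix culture. The groups of each gene did not overlap. PMEPA1 changed by -1.11 (SE 0.24, adjusted p = 0.130 without and 0.00279 with the slide as a block), a fold of 0.464, and all 4 of its probes passed in the latter fit. TGFBR3 changed by 1.08 (SE 0.25, adjusted p = 0.174 without and 0.00116 with the slide as a block), and 4 of its 5 tested probes passed with that block. Without a block 1 of the 5 passed, A_11_P0000015115, with a change of 1.08 (SE 0.16, adjusted p = 0.0287). The ligands BMP4 and TGFB1 gave -0.80 (SE 0.25) and -0.64 (SE 0.41). Their adjusted p was 0.349 and 0.785 without a block and 0.0247 and 0.0125 with the slide as a block. The groups of TGFB1 overlapped. SMAD7, which SMAD signalling induces, gave -0.39 (SE 0.15) and passed in neither fit.

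**Figure D4:**
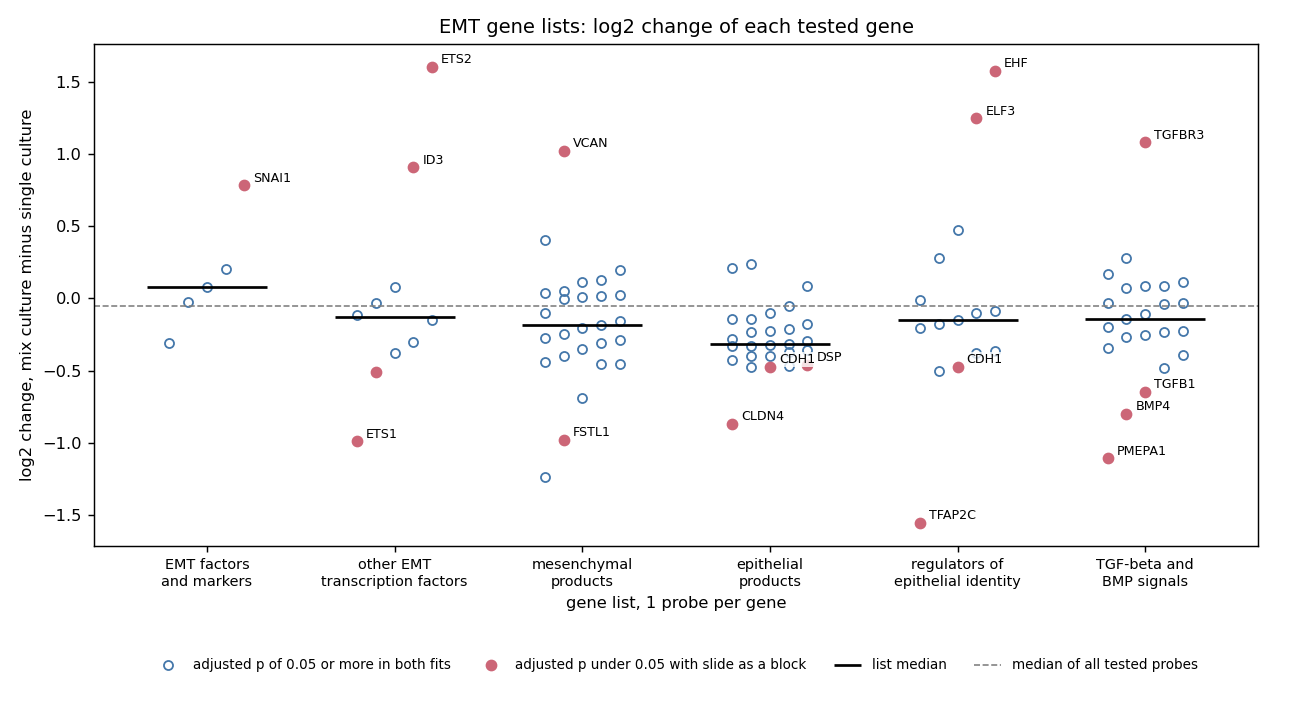
Change in log2 signal, mix culture minus single culture, of each tested gene in the EMT factors and markers and in the 5 lists, with a solid line at each list's median and a dashed line at the median of all tested probes, -0.05. Filled points passed an adjusted p of 0.05 in limma with the slide as a block, and 0 of the plotted probes, the brightest of each gene, passed without it. The epithelial products have the lowest median, -0.32.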

How the data were processed

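Total RNA from sorted GFP-positive cells was labelled with Cy3 and hybridised to Canine (V2) arrays, with group and replicate number as in each title. For each array, the authors deposited the scanner's spot intensity with detection flags, which per the file headers Agilent Feature Extraction had background-subtracted (version 11.5.1.1 on slide 1, 12.1.1.1 on slide 2). They also deposited a table of log2 values centred within each slide, used as an alternative. Its columns for mix culture replicates 2 and 3 followed each other's scanner file (correlations of 0.993 and 0.999).

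Outlier spots were dropped (5 to 9 an array), the log2 signals of a probe's spots were averaged, and the 75th percentile of the array was subtracted. Detection well above background held for 61.1% to 65.7% of an array's spots, and the number of arrays limits the precision. The comparison used lmFit and eBayes of limma 3.58.1, run in R 4.3.3 (two-sided, Benjamini-Hochberg over all 26623 probes tested, called at an adjusted p under 0.05), after a test on simulated data. Same-numbered arrays deviated together, with correlations of 0.801 on slide 1 and of 0.53 and 0.572 on slide 2. Within slide 2, different-numbered arrays of the 2 cultures did so slightly more strongly than the same-numbered ones (0.61 and 0.632). The replicate block took the number as pairing arrays, which these correlations do not show within slide 2. Alternatives were both blocks, the methods' t-test, 2 filters, 3 scalings, the authors' table, slide 2 alone, the mean of a gene's probes and leaving out each array. The genes, the lists and the rule for naming genes (every list gene called, the 2 largest changes among those not called, CDH1 and CDH2, and the 3 genes most correlated with VIM and EPCAM) were chosen with earlier results of these data known. OVOL2, SMAD7, the genes at background and those passing with the slide as a block were added after their values were seen. Some items that these rules cover are not reported here.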

Additional observations from a re-analysis of the deposited data

How the results depend on the processing

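Over all probes, 235 were called. It was 1917 with the slide block, 1399 with the replicate block, 1446 with the replicate block and mix culture replicates 2 and 3 exchanged (a pairing tried after seeing the data, because of the authors' table), 4077 from the authors' table and 998 on slide 2 alone. It was 143 when a probe had to be well above background on all 6 arrays, 132 after normexp and quantile normalisation, 8 by the methods' t-test, and 92 to 247 when 1 array was left out. The EMT probes called numbered 0 of 8, and 1 with the slide block, the replicate block, the exchanged pairing and slide 2 alone (SNAI1 each time). From the authors' table they were 2, SNAI1 and VIM, and leaving out 1 array gave 0 to 0. That table is centred within slides, and the fit to it carried no slide term. The other alternatives gave 0.

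The sign turned for some changes that were not called. The brightest EPCAM probe (A_11_P195733) gave 0.090 after normexp, 0.11 after quantile normalisation, 0.10 from the authors' table and 0.039 on slide 2 alone, with -0.16 to 0.18 when 1 array was left out. EPCAM probe A_11_P0000014730 ran from -0.067 to 0.13 and ESRP1 from -0.14 to 0.29 when 1 array was left out. The cause was not tested.

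Counts of called genes in the lists, each by its brightest probe, were 0 without a block, where other probes of EHF, ETS2 and TGFBR3 passed. The lists held 27, 27, 10, 15 and 23 tested genes in the order below. Over all features, 1917, 1399, 1446 and 4077 of 26623 probes passed with the slide block, the replicate block, its exchanged pairing and the authors' table. On slide 2 alone it was 998 of 26807. The list counts were not tested against these shares and are not read as results about the lists. They were 3 with the slide block, 1 with the replicate block or its exchanged pairing and 5 from the authors' table for epithelial products. For mesenchymal products they were 2, 2, 3 and 6 in that order, and 2 on slide 2 alone. For the other EMT transcription factors they were 4, 3, 3 and 4, with 3 on slide 2 alone, 1 each after normexp, after quantile normalisation and with the mean of a gene's probes, and 0 to 1 when 1 array was left out (ETS2, adjusted p = 0.0292 without mix culture replicate 1). For the regulators of epithelial identity they were 4, 3, 3 and 8, with 3 on slide 2 alone, 1 each after quantile normalisation and with the mean of a gene's probes, and 0 to 1 when 1 array was left out (EHF, adjusted p = 0.0102 without single culture replicate 1). The counts of this list with the slide block and the replicate block include TFAP2C, which was tested through single culture alone. For the TGF-β and BMP signals they were 4, 4, 4 and 6, with 2 on slide 2 alone and 0 to 1 when 1 array was left out (PMEPA1, adjusted p = 0.048 without mix culture replicate 1). Signal over background limits ZEB1, ZEB2, GRHL2 and OVOL1, for which no change could be measured.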
